A study of Mus musculus with 24 samples.

Results

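The 45 genes that encode ribosome assembly factors were followed through oocytes and early embryos of Nlrp14 knockout (KO) and wild-type (WT) mice. They were taken by gene symbol from a given list, matched to Ensembl identifiers in the GRCm38 annotation, and all 45 were found among the 55487 genes in the files. By role the 45 comprised 4 box C/D small nucleolar ribonucleoprotein (snoRNP) proteins, 4 box H/ACA snoRNP proteins, 4 other nucleolar proteins, 16 small-subunit (SSU) processome proteins, 5 later 40S maturation factors and 12 factors of 60S assembly.

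The study sequenced RNA from 24 libraries in a comparison of genotypes over early development. The groups were KO and WT at each of 4 stages: oocytes with a germinal vesicle (GV), oocytes at metaphase II (MII), zygotes with late pronuclei (PN5) and 2-cell embryos (2cell). Each of the 8 groups had 3 libraries labelled as biological replicates, and each library pooled 5 oocytes or embryos. The strain, the age of the females, the deleted part of Nlrp14 and the genotype of the sires are not given in the sources used here. Values are the authors' FPKM (fragments per kilobase of transcript, scaled to all mapped fragments), a relative scale on which each gene competes with all others in its library. Differences are on the log2(FPKM + 1) scale, which compresses the change where values are low.

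Ribosomes are built in the nucleolus from a long precursor rRNA. Box C/D and box H/ACA snoRNPs methylate and pseudouridylate that precursor, the SSU processome folds and cleaves the part that becomes the 40S subunit, and a separate set of factors matures the 60S subunit before export to the cytoplasm. Growing mouse oocytes make and store ribosomes, fully grown oocytes fall largely silent in transcription, and production of rRNA resumes after fertilization, when the embryo activates its own genome and builds functional nucleoli out of nucleolus precursor bodies.

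The targeted gene was measured first, as a check of the labels. Nlrp14 lay between 22.2 and 39.2 FPKM in KO GV oocytes, against 1876 to 2014 FPKM in WT. In 2-cell embryos it lay between 17.2 and 36.2 FPKM in KO, against 90.2 to 129 FPKM in WT, and the groups stayed apart at MII and PN5 as well. The deposited values implied 7.65 to 12.3 M fragments per library. All 10 oocyte markers, among them zona pellucida genes, Gdf9 and Dppa3, reached 1 FPKM in every group, and all 12 markers of the 2-cell stage reached it in both 2-cell groups. Within groups, the lowest member values were spread most unevenly over libraries in 3 places: KO GV library 3 held the lowest value of its group for 31 of the 45 members, WT PN5 library 1 for 27 and WT 2-cell library 3 for 31, while WT 2-cell library 1 held the highest for 38. Yet KO GV library 3 and WT PN5 library 1 had the highest summed member level of their groups (2559 and 1248 FPKM), and WT 2-cell library 3 the lowest (2024 FPKM). In their groups these 3 libraries had the most negative slope of log2 level on log2 gene length (-0.285, -0.250 and -0.116). The cause was not tested.

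Promoter sequences are shown for the 4 members with the largest WT rise at the 2-cell stage that had a RefSeq entry (Nop16, Nhp2, Nop2 and Rrp9) and for 2 members that did not rise there (Brix1 and Bms1), so that both kinds can be read side by side. Each line gives the 250 bases before the annotated start site (RefSeq, build GRCm38.p6), 5′ to 3′ on the gene's strand. Capitals mark matches on either strand to CACGTG (the E-box), CCGGAAG (an ETS motif) or GGGCGG (a GC box). TATAAA was searched as well and matched in none of these 6. The start of Nop2 in RefSeq was not found in a GENCODE transcript. The windows lie at chr13:54590075-54590324, - strand (Nop16), chr11:51619523-51619772, + strand (Nhp2), chr6:125131633-125131882, + strand (Nop2), chr9:106477059-106477308, + strand (Rrp9), chr15:10485938-10486187, - strand (Brix1) and chr6:118419418-118419667, - strand (Bms1).
Nop16: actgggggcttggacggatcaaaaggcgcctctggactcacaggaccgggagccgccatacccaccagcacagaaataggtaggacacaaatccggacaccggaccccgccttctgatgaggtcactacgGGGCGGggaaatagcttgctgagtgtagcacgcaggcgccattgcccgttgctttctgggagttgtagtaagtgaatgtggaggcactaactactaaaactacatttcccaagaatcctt
Nhp2: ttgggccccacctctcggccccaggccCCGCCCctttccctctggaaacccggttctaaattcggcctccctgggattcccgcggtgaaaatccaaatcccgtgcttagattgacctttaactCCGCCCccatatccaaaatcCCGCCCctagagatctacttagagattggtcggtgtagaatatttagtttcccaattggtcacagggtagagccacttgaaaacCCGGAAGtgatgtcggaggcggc
Nop2: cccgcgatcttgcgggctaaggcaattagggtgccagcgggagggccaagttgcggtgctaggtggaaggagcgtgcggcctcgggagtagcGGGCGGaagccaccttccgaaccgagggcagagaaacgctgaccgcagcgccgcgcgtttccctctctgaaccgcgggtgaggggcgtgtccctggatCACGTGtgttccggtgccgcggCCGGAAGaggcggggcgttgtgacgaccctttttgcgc
Rrp9: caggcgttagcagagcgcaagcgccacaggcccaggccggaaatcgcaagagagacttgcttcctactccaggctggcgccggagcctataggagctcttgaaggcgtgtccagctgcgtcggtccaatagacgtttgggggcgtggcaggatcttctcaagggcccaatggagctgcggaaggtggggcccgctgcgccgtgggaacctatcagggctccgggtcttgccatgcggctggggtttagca
Brix1: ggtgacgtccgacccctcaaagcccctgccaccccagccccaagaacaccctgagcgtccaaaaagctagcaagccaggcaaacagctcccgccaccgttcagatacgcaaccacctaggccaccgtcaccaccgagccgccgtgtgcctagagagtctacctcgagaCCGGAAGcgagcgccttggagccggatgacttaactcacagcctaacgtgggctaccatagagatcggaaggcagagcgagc
Bms1: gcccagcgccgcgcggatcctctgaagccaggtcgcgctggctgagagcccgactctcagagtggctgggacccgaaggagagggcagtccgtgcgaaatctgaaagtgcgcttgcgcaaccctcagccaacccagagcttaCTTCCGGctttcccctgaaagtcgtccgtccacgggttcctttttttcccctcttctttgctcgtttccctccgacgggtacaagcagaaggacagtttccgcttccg

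RefSeq windows were matched for 36 of the 45 members, in 39 windows. The ETS motif was found in 14 of the 39 windows (35.9%), among them those of Nhp2, Nop2, Brix1 and Bms1 above, against 6.91% of all 32851 promoter windows and 13.7% of the 9797 windows of genes tested at the 2-cell stage. The GC box was found in 46.2% of member windows, against 32.7% of all windows and 53.1% of those of tested genes. The E-box was found in 10.3%, against 6.02% and 8.33%, and TATAAA in 5.13%, against 12.4% and 7.55%. Rrp9, with 1 of the largest rises, held none of these motifs, and the ETS motif occurred both in members that rose and in members that did not, so these matches describe the letters only.

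The summed level of the 45 members separated the genotypes at the 2-cell stage. It was 710 ± 42.8 FPKM in KO 2-cell embryos and 2276 ± 296 FPKM in WT (SD, n = 3 each), which is 0.143% and 0.476% of all FPKM in those libraries. At earlier stages the sums overlapped or lay closer: 2059 ± 434 FPKM in KO and 1912 ± 59.2 in WT at GV, 1398 ± 276 in KO and 1124 ± 48.0 in WT at MII, and 763 ± 54.2 in KO and 1049 ± 199 in WT at PN5. In KO 2-cell libraries 36 to 39 members reached 1 FPKM, against 44 to 45 in WT. FPKM is a share of each library, so these sums do not give the amount of member RNA per cell or embryo. The samples are pools of whole oocytes or embryos, and differences in intact cells among them were not tested.

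**Figure D1:**
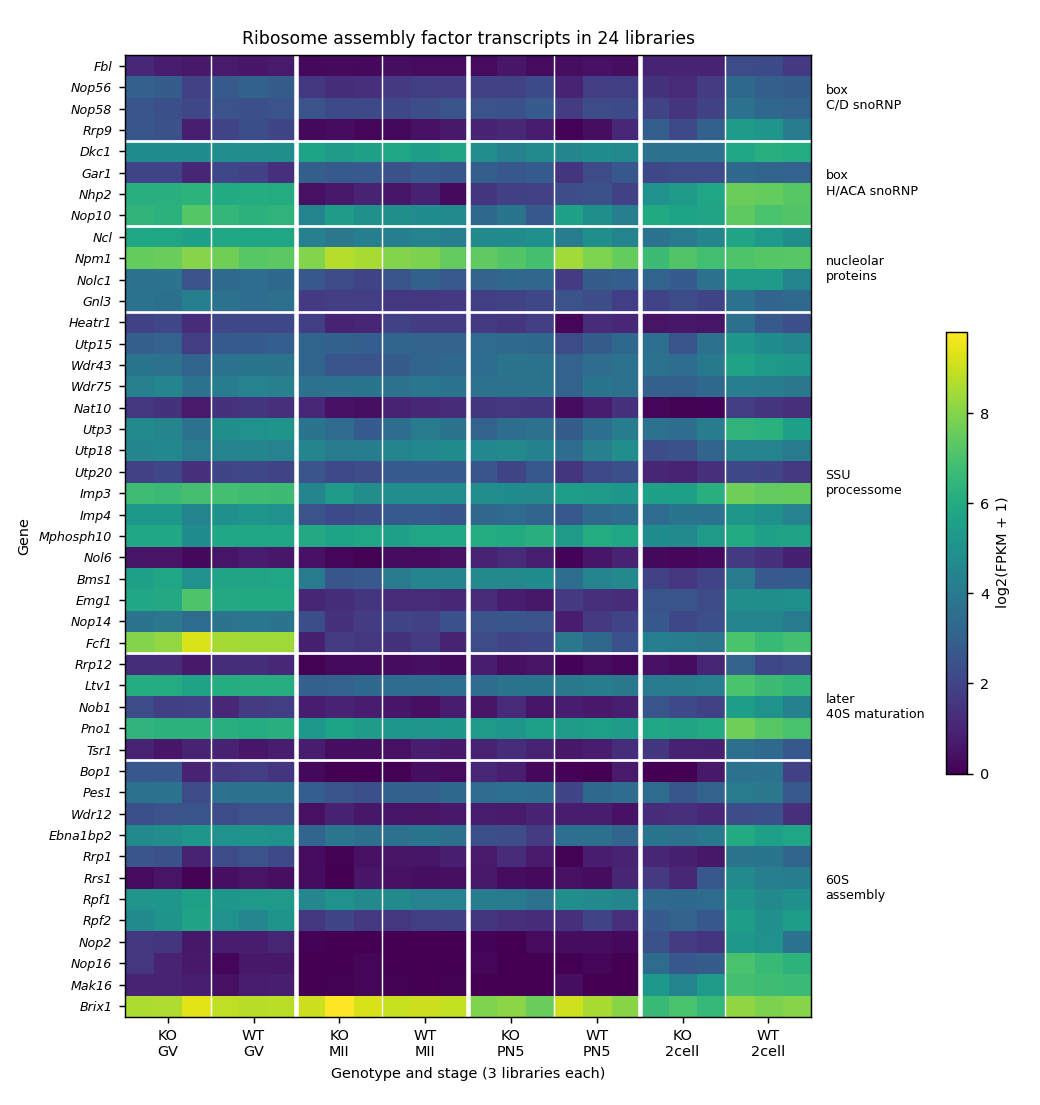
Heat map of log2(FPKM + 1) for the 45 members (rows, by role) in 24 libraries (columns, 3 per group, KO left of WT at each stage). Colour runs from dark (0) to yellow (highest), and nearly all rows are darker in KO than in WT 2-cell embryos, while at GV, MII and PN5 rows differ in both directions.

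In WT, the FPKM of most members fell between the GV and MII stages. Whether these values follow transcript amount alone, or also how well each transcript was amplified, was not tested. Of 38 members tested, 29 were lower and 5 higher in MII oocytes than in GV oocytes (limma with Benjamini-Hochberg adjustment, adjusted p under 0.05), while 84% of all tested genes were called, 52.8% lower and 31.1% higher. Of the 29, 7 (Rrp9, Nhp2, Rrp12, Nob1, Bop1, Wdr12 and Rrp1) were under 1 FPKM in every MII library and entered the test only through their GV values. Of the 34 calls, 19 were made in all the alternative fits with the filter reapplied after a library was left out, and 26 with the tested genes held. The median member difference was -1.07 against -0.50 for all tested genes. Fcf1, which encodes a PIN-domain nuclease of the SSU processome (ENSMUSG00000021243, chromosome 12, 84970897 to 84983303, + strand), stood at 1.74, 2.25 and 0.949 FPKM in the WT MII libraries and 358, 343 and 336 FPKM in the WT GV libraries. Its groups lay far apart, with a log2 difference of -7.07 (SE 0.17, adjusted p = 2.3e-08).

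The other large falls were those of Nhp2, a core box H/ACA protein (log2 -5.44), Emg1, a methyltransferase that acts on 18S rRNA (log2 -4.78), Rpf2, which helps to place the 5S particle in the 60S precursor (log2 -3.15), Ltv1, a 40S maturation factor (log2 -2.54), and Imp4, an SSU processome protein bound to the U3 snoRNA (log2 -2.28). Dkc1, the box H/ACA pseudouridine synthase, went the other way at 50.2 ± 5.12 FPKM in MII and 27.5 ± 0.612 FPKM in GV (log2 0.84 (SE 0.09, adjusted p = 5.2e-05)). Gar1, its partner (log2 0.83), Utp20 (log2 0.76), Utp15 (log2 0.30) and Brix1 (log2 0.20) also rose. Removing the trend of level on gene length turned Utp15 to -0.10 and ended the calls of Utp20 and Brix1. The calls of Utp15 and Brix1 were also lost with all 24 libraries in 1 fit, that of Utp15 without GV library 1, and that of Brix1 without GV library 2 or MII library 2. Median-of-ratios scaling gave 8 higher and 24 lower, TPM scaling gave 8 higher and 26 lower, and removing the length trend gave 2 higher and 31 lower.

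The same step in KO oocytes was not tested, and its values are set beside those of WT. The MII level was 0.44% of the GV level in KO and 0.48% in WT for Fcf1, 0.86% in KO and 0.81% in WT for Nhp2, 1.70% in KO and 2.05% in WT for Emg1, and 179% in KO and 183% in WT for Dkc1. These genes do not stand for all members. The level was 41.8% in KO and 61.5% in WT for Nolc1, 165% in KO and 128% in WT for Npm1, and 262% in KO and 205% in WT for Gar1.

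From MII to PN5 few members moved in WT: 2 were higher and 1 lower of 32 tested, with 14.2% of all tested genes called, 9.8% higher and 4.44% lower. Fcf1 stood at 8.97 ± 4.55 FPKM in PN5 and 1.65 ± 0.654 FPKM in MII (log2 1.84 (SE 0.38, adjusted p = 0.018)). Nhp2 had 3.74 ± 0.876 FPKM in PN5 and 0.519 ± 0.335 FPKM in MII (log2 1.65 (SE 0.24, adjusted p = 0.0057)), and was under 1 FPKM in every MII library. Dkc1 had 24.1 ± 2.70 FPKM in PN5 and 50.2 ± 5.12 FPKM in MII (log2 -1.03 (SE 0.18, adjusted p = 0.01)). Between 0 and 7 members were called when 1 library was left out, 0 to 1 without MII library 1 or 3 or PN5 library 2 when the filter was reapplied. Of these 3 calls, 0 were made in all the settings with the filter reapplied and 1 with the tested genes held.

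From PN5 to the 2-cell stage the WT level of the members rose. Of 44 members tested, 34 were higher and 1 was lower in 2-cell embryos, with 62.8% of all tested genes called and 48% called higher. The median member difference was 2.04, against 0.70 over all tested genes. A gain of at least 3 on the log2 scale was measured for 11 members, and the matching share of all tested genes is not given. Nop16, a 60S assembly factor (ENSMUSG00000025869, chromosome 13, 54584185 to 54590090, - strand), had 126, 99.8 and 79.4 FPKM in WT 2-cell libraries and 0, 0.118 and 0 FPKM in WT PN5 libraries. Every 2-cell library lay far above every PN5 library, with a log2 difference of 6.60 (SE 0.26, adjusted p = 7.2e-07).

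Mak16, another 60S factor (ENSMUSG00000031578, chromosome 8, 31159463 to 31168764, - strand), had 115, 107 and 103 FPKM in 2-cell and 0.298, 0 and 0 FPKM in PN5 libraries (log2 6.64 (SE 0.24, adjusted p = 5.7e-07)). It shares 882 nt, 39.4% of its exon sequence, with Tti2 on the opposite strand, so how the counting shared reads out between the pair is not known. Nhp2 had 193, 179.6 and 151 FPKM in 2-cell and 4.02, 4.45 and 2.76 FPKM in PN5 libraries (log2 5.22 (SE 0.24, adjusted p = 1.6e-06)). Large rises were also measured for Nop2, which encodes an rRNA cytosine methyltransferase (log2 4.39), Rrp9, which binds the U3 snoRNA (log2 4.33), and Nob1, the nuclease that makes the final cut of 18S rRNA (log2 4.16). Npm1, which encodes the nucleolar chaperone nucleophosmin, was the member called lower, at 146 ± 7.62 FPKM in 2-cell and 256 ± 86.4 FPKM in PN5 (log2 -0.75 (SE 0.27, adjusted p = 0.04)). The call of Npm1 was made in 6 of 13 other settings and lost with no filter, with the replicate block and without any 1 of PN5 libraries 1 and 2 and the 3 2-cell libraries, and median-of-ratios scaling added Bms1 and Brix1 as lower. Ncl, among the 34 higher, was called in 4 of 13. Of the 35 calls, 22 were made in all the alternative fits with the filter reapplied and 31 with the tested genes held. In 9 of the 44 tested members, all 9 called higher, every PN5 library was below 1 FPKM, so they entered the test through the 2-cell libraries.

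**Figure D2:**
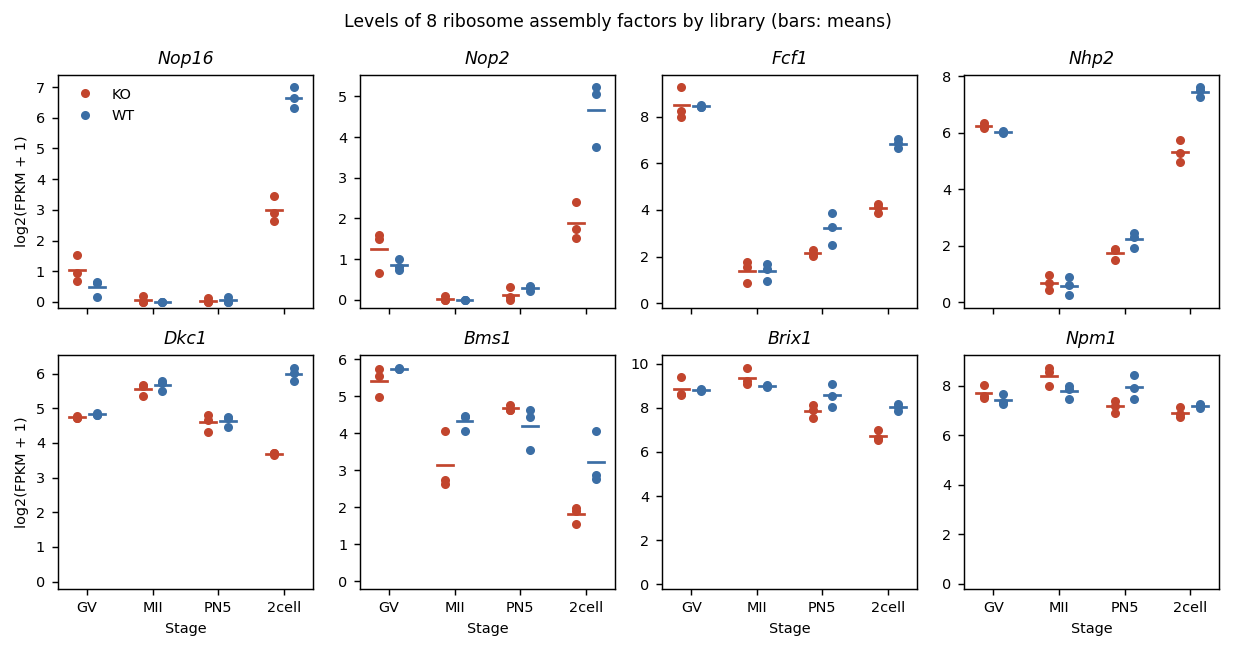
Levels of 8 members as log2(FPKM + 1) at the 4 stages, KO (red) left of WT (blue), with 1 point per library and bars at the mean of 3. In the 2-cell column the KO points of Nop16, Nop2, Fcf1, Nhp2, Dkc1, Bms1 and Brix1 all lie below the WT points, and those of Npm1 overlap them.

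In GV oocytes no member passed the adjusted threshold between KO and WT. Of 38 tested, 0 passed (limma), with 0.043% of all tested genes called; 1 member and 1378 genes had an unadjusted p under 0.05. The median difference was -0.09 for the members and -0.08 for all tested genes, 3 members had KO libraries above every WT library (8.14% of all genes) and 3 below (14.8%). Bop1, the subunit of the PES1-BOP1-WDR12 complex that acts in 60S assembly, had 5.40, 5.31 and 0.979 FPKM in KO GV libraries and 2.13, 2.43 and 1.82 FPKM in WT. Without KO GV library 3, which held the lowest Bop1 value, 2 members were called, Bop1 (log2 1.03) and Utp3 (log2 -0.45), with 8.97% of all tested genes called.

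In MII oocytes 0 of 31 members passed (limma), with 2.28% of all tested genes called; 6 members and 2544 genes had an unadjusted p under 0.05. The median difference was -0.12 for the members and -0.18 for all tested genes. Bms1, a GTPase of the SSU processome (ENSMUSG00000030138, chromosome 6, 118383381 to 118419474, - strand), differed most among the tested members, at 15.8, 5.15 and 5.64 FPKM in KO and 15.8, 20.99 and 20.8 FPKM in WT (log2 -1.18 (SE 0.36, adjusted p = 0.095)), and the highest KO value, 15.76 FPKM, lay just below the lowest WT value, 15.77 FPKM. Without KO MII library 1, which holds that KO value, 36.2% of all tested genes were called and 10 members, 2 higher (Npm1 and Brix1) and 8 lower, Bms1 the largest at -1.65.

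In PN5 zygotes 1 of 32 members passed, with 6.1% of all tested genes called and 5.53% called lower. It was Ebna1bp2, a factor that acts early in 60S assembly (ENSMUSG00000028729, chromosome 4, 118620799 to 118627776, + strand), with 4.32, 4.04 and 2.24 FPKM in KO and 11.04, 11.2 and 8.12 FPKM in WT (log2 -1.32 (SE 0.27, adjusted p = 0.041)). The KO libraries lay below the WT libraries for it, yet the call was lost under median-of-ratios scaling, TPM scaling, a pseudocount of 0.1, no filter and the replicate block, and without any 1 of the KO libraries or WT library 2. Among the tested members 7 had every KO library above every WT library (16.1% of all genes) and 9 had every one below (24%). Nop10, a box H/ACA protein, had 8.62, 13.1 and 5.36 FPKM in KO and 48.03, 28.2 and 17.6 FPKM in WT (log2 -1.65 (SE 0.41, adjusted p = 0.055)), and was not called. Without WT PN5 library 3, 11 members and 32.9% of all tested genes were called.

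**Figure D3:**
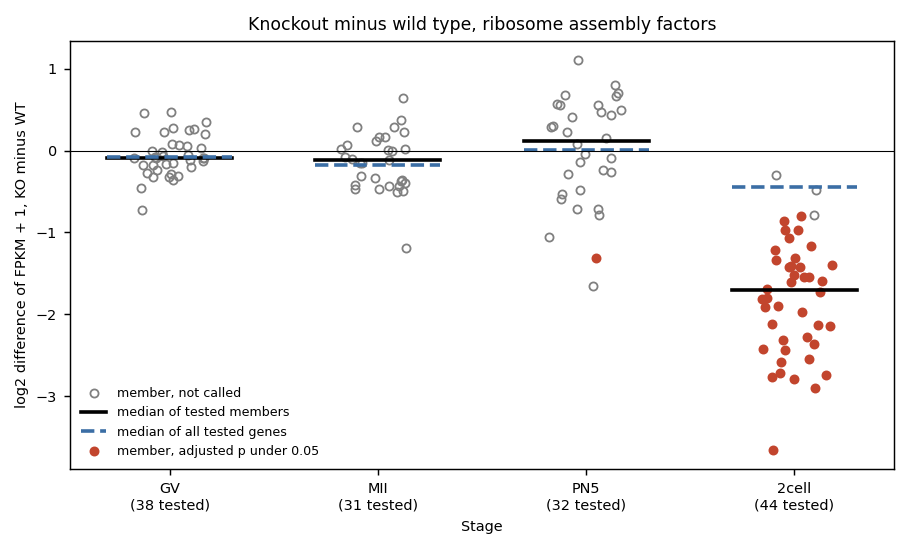
Difference KO minus WT in log2(FPKM + 1) for each tested member at the 4 stages, with the median of the tested members (black) and of all tested genes (dashed blue). Red points passed the adjusted threshold of 0.05: 0 at GV, 0 at MII, 1 at PN5 (Ebna1bp2) and 41 in 2-cell embryos, where the member median is -1.71 and the median of all genes -0.44.

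In 2-cell embryos nearly all members were lower in KO. Of 44 tested, 41 were called lower and 0 higher, with 54.3% of all tested genes called and 40.3% called lower. The median difference was -1.71 for the members and -0.44 for all tested genes. Of the 41, 4 (Fbl, Heatr1, Nat10 and Bop1) were under 1 FPKM in every KO library and entered the test only through WT. In 42 tested members, and in Nol6 as the untested member, every KO library lay below every WT library, where 44.6% of all tested genes did so. Over all 45 the KO mean was 25.7% of the WT mean (median), with a range of 2.23% for Bop1 to 81.8% for Npm1. In 22 members it was under 25% and in 5 under 10%, and the matching shares of all tested genes are not given. Among the 5, the ratios of Bop1, Nat10 and Heatr1 rest on KO values under 1 FPKM, and that of Rrp1 on 1.09, 0.803 and 0.554 FPKM.

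The scaling between libraries bears on these values. With median-of-ratios scaling, the median of all tested genes moved to -0.05, 53.5% of called genes were lower, against 74.2% in FPKM as deposited, and 35 members remained called lower. Of the 41 calls, 31 were made in all the alternative fits when the filter was reapplied after a library was left out, and 35 when the tested genes were then held as in the full fit. Members that lost their call under median-of-ratios scaling were Gar1, Ncl, Wdr75, Utp20, Imp4 and Mphosph10. Marker lists differed as well. The summed oocyte markers were 18452 to 25388 FPKM in KO and 6029 to 7951 FPKM in WT, with 7 of 10 called higher and 1, Zp3, lower (log2 -1.57). The summed 2-cell markers were 2591 to 3885 FPKM in KO and 1579 to 2249 FPKM in WT. The list for blood, stroma and oviduct, which also holds Epcam, Krt8 and Krt18, summed to 29.7 to 43.6 FPKM in KO and 117 to 230 FPKM in WT. At PN5 its sum was 8.70 to 9.64 FPKM in KO and 4.10 to 7.29 FPKM in WT, so it was low before the 2-cell stage. In each 2-cell group 7 of the 15 reached 1 FPKM, with Hbb-bs, Col3a1 and Foxj1 at 0 in both. The highest of them was Hba-a1 in KO (mean 16.0 FPKM) and Epcam in WT (mean 76.9 FPKM), so the 2 sums were led by different genes. Granulosa and cumulus markers summed to 12.1 to 15.4 FPKM in KO and 35.5 to 52.5 FPKM in WT, with 4 of 24 in KO and 7 in WT reaching 1 FPKM and Fshr, Amh and Pgr at 0 in both. The highest of these was Tnfaip6, at a mean of 4.56 FPKM in KO and 25.2 FPKM in WT. Sperm markers summed to 29.4 to 35.7 FPKM in KO and 43.9 to 47.6 FPKM in WT, with 8 of 18 in KO and 10 in WT reaching 1 FPKM and Tnp2, Spaca1 and Crisp2 at 0 in both. The part of these markers in the members' result was not tested.

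All 4 box C/D proteins were called lower in KO 2-cell embryos. Fbl, the methyltransferase fibrillarin, had 0.921, 0.991 and 0.985 FPKM in KO and 3.86, 3.61 and 2.09 FPKM in WT (log2 -1.06 (SE 0.24, adjusted p = 0.0066)). Nop56, which holds the particle together, had 1.73, 1.28 and 2.30 FPKM in KO and 8.90, 6.75 and 6.36 FPKM in WT (log2 -1.59 (SE 0.24, adjusted p = 0.0011)). The KO libraries of both genes lay below all WT libraries. Nop58, the partner of Nop56, had 3.02, 1.85 and 2.87 FPKM in KO and 11.9, 8.65 and 7.75 FPKM in WT (log2 -1.54 (SE 0.25, adjusted p = 0.0015)), again with no overlap. Rrp9 had 6.93, 3.45 and 7.20 FPKM in KO and 41.2, 33.8 and 15.4 FPKM in WT (log2 -2.13), with WT library 3 the lowest of its group.

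All 4 box H/ACA proteins were called lower as well. Dkc1 (ENSMUSG00000031403, chromosome X, 75095854 to 75109777, + strand) had 11.6, 11.97 and 11.98 FPKM in KO and 54.1, 70.9 and 64.1 FPKM in WT (log2 -2.31 (SE 0.19, adjusted p = 0.00021)). Its KO libraries differed by little among themselves. Nhp2 (ENSMUSG00000001056, chromosome 11, 51619735 to 51623714, + strand) had 30.1, 37.7 and 52.9 FPKM in KO and 193, 179.6 and 151 FPKM in WT (log2 -2.12 (SE 0.24, adjusted p = 0.00039)). Nop10 (log2 -1.40) and Gar1 (log2 -0.97) differed less.

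Of the 4 other nucleolar proteins, 3 were called lower. Ncl, which encodes nucleolin, had 12.2, 15.9 and 21.1 FPKM in KO and 52.5, 38.1 and 28.6 FPKM in WT (log2 -1.22 (SE 0.28, adjusted p = 0.0071)). Nolc1, a chaperone of snoRNPs, differed by -1.82 and Gnl3, a nucleolar GTPase, by -1.33. Npm1 (ENSMUSG00000057113, chromosome 11, 33152287 to 33163206, - strand) had 105, 140.2 and 114 FPKM in KO and 138, 148 and 153 FPKM in WT. Its groups overlapped, and the difference did not pass (log2 -0.30 (SE 0.18, adjusted p = 0.2)), with a value of 0.25 under median-of-ratios scaling.

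Of the 16 SSU processome proteins 15 were tested, and all 15 were called lower. Fcf1 had 17.99, 16.3 and 13.7 FPKM in KO and 129, 98.8 and 116 FPKM in WT (log2 -2.77 (SE 0.20, adjusted p = 0.0002)). Emg1 had 4.86, 4.85 and 3.70 FPKM in KO and 27.8, 28.2 and 29.2 FPKM in WT (log2 -2.43). Heatr1, a large scaffold protein, had 0.440, 0.560 and 0.479 FPKM in KO and 11.4, 5.88 and 4.33 FPKM in WT (log2 -2.37). The groups of all 3 genes lay apart, and Heatr1 was under 1 FPKM in every KO library. Imp3, which binds the U3 snoRNA with Imp4 and Mphosph10, had 47.8, 47.2 and 70.7 FPKM in KO and 198, 172 and 177 FPKM in WT (log2 -1.73), and Imp4 differed by -1.16. Nat10, the acetyltransferase of 18S rRNA, had 0.128, 0.0358 and 0.0679 FPKM in KO and 2.41, 1.83 and 1.47 FPKM in WT (log2 -1.42), low values on both sides. Utp3 differed by -2.28, Nop14 by -1.91, Utp15, Wdr43 and Wdr75, which belong to the subcomplex that first meets the precursor, by -1.54, -1.69 and -0.97, Utp18 by -1.60 and Bms1 by -1.41. The smallest differences among the called were those of Utp20 (log2 -0.80), whose call was also lost without WT library 1 or 2 or KO library 1 or 2, and Mphosph10 (log2 -0.86). Nol6, not tested as under 3 libraries reached 1 FPKM, had 0.170, 0.109 and 0.186 FPKM in KO and 2.14, 1.66 and 0.798 FPKM in WT.

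All 5 later 40S maturation factors were called lower. Nob1 (ENSMUSG00000003848, chromosome 8, 107412486 to 107425051, - strand) had 4.80, 3.52 and 2.78 FPKM in KO and 42.98, 31.8 and 18.7 FPKM in WT (log2 -2.72 (SE 0.32, adjusted p = 0.00046)). Ltv1 had 16.1, 16.5 and 18.5 FPKM in KO and 131, 105 and 88.1 FPKM in WT (log2 -2.58). Both genes stood lower in each KO library than in any WT library. Pno1, the partner of Nob1 at the end of the 18S rRNA, had 58.3, 51.8 and 62.5 FPKM in KO and 198, 152 and 126 FPKM in WT (log2 -1.43). Tsr1 differed by -2.14 and Rrp12, an export factor, by -1.90. Tsr1 shares 1240 nt, 32.3% of its exon sequence, with Srr on the opposite strand, so how the counting assigned reads from the shared stretch is not known.

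Of the 12 factors of 60S assembly 10 were called lower. Nop16 had 9.999, 5.25 and 6.48 FPKM in KO and 126, 99.8 and 79.4 FPKM in WT (log2 -3.66 (SE 0.27, adjusted p = 0.0002)), the largest difference on the log2(FPKM + 1) scale. As a ratio of means, Bop1 (2.23%), Nat10 (4.06%) and Heatr1 (6.85%) stood lower in KO relative to WT than Nop16 (7.12%). Bop1 was listed at 0, 0 and 0.608 FPKM in KO, against 12.1, 12.4 and 2.80 FPKM in WT (log2 -2.90 (SE 0.49, adjusted p = 0.0017)). The WT libraries of Bop1 differed widely, and the KO libraries lay below all of them. Nop2 had 4.33, 2.32 and 1.88 FPKM in KO and 36.3, 32.3 and 12.4 FPKM in WT (log2 -2.78 (SE 0.42, adjusted p = 0.001)). Rrp1 had 1.09, 0.803 and 0.554 FPKM in KO and 12.5, 13.1 and 8.23 FPKM in WT (log2 -2.75 (SE 0.26, adjusted p = 0.00026)). Each was lower in every KO library than in any WT library. Rrs1 and Rpf2, which act together to dock the 5S particle, differed by -2.55 and -2.42, Ebna1bp2 by -1.97, Mak16 by -1.80 and Rpf1 by -1.52. Brix1, a protein of the family that also holds Rpf1, Rpf2 and Imp4, was among the most abundant members throughout and had 97.9, 125 and 91.6 FPKM in KO and 286, 234 and 262 FPKM in WT (log2 -1.32). The partners of Bop1 were not called with all libraries in: Pes1 had 9.96, 5.09 and 7.62 FPKM in KO and 15.1, 13.8 and 5.65 FPKM in WT (log2 -0.48 (SE 0.38, adjusted p = 0.31)), and Wdr12 had 1.40, 1.54 and 1.14 FPKM in KO and 4.01, 4.24 and 1.55 FPKM in WT (log2 -0.79 (SE 0.31, adjusted p = 0.059)). Groups of Pes1 overlapped, those of Wdr12 did not. Without WT library 3 both were called lower, Pes1 at -0.89 and Wdr12 at -1.12, and Wdr12 was also called with all 24 libraries in 1 fit.

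**Figure D4:**
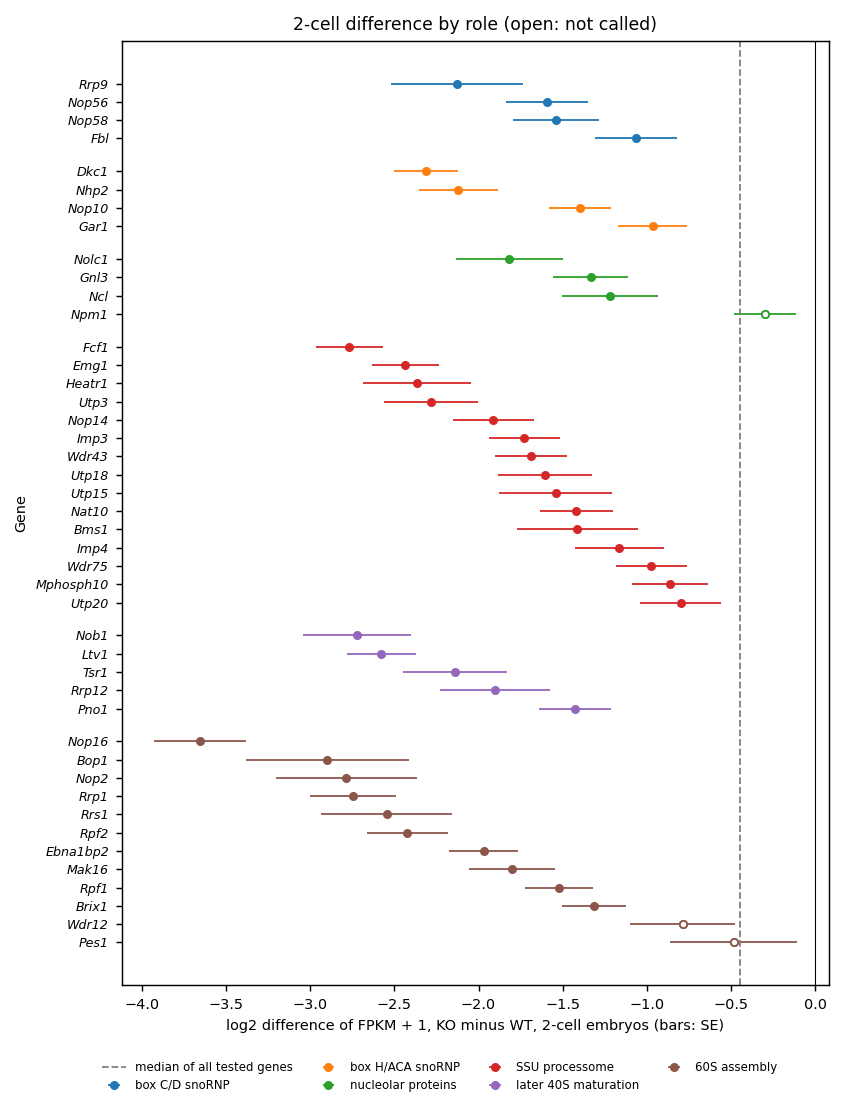
Difference KO minus WT at the 2-cell stage in log2(FPKM + 1) for the 44 tested members, by role (colours), with SE bars. Open points (Npm1, Wdr12 and Pes1) did not pass the threshold, and the dashed line marks the median of all tested genes at -0.44.

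Members were also described by their WT course. The 7 that were under 1 FPKM in WT GV oocytes (Fbl, Nol6, Tsr1, Rrs1, Nop2, Nop16 and Mak16) stood in KO 2-cell embryos at 7.12 to 30.3% of the WT mean, with a median of 13.5%. The 13 whose WT MII level was under 25% of the GV level stood at 2.23 to 41.6% (median 16.4%). The 25 others stood at 4.06 to 81.8% (median 30.3%). The 3 ranges overlapped, and these medians are a description without a test.

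The step from PN5 to the 2-cell stage differed between genotypes. In KO, 16 of 39 tested members were called higher and 14 lower at the 2-cell stage than at PN5, with 70.6% of all tested genes called, 43.8% higher and 26.8% lower. Of the 34 members that rose in WT, 16 rose in KO, 6 fell (Nop56, Nop58, Dkc1, Gar1, Ncl and Heatr1), 7 were not called and 5 were not tested there. In all 34 the gain in mean FPKM was smaller in KO, although the log2 change of Nop10 was 0.25 larger there. The 34 were picked by their rise in these WT libraries, which favours a smaller gain and fewer rises in KO. No share over all genes that rose in WT is given to set beside these counts. Of the 30 KO calls, 13 were made in all the alternative fits with the filter reapplied and 19 with the tested genes held, and the fall of Nop56 was called in 5 of 13. In 7 of the 39, 5 called higher and 2 lower, a whole group was under 1 FPKM. The KO counts also depended on scaling. Median-of-ratios scaling gave 13 higher and 16 lower, and TPM scaling 12 higher and 19 lower, with Ltv1 and Pno1 turned to -0.13 and -0.09. Removing the length trend gave 19 higher and 8 lower, with Nop58 turned to 0.05 and Ncl to 0.12.

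Mak16 had 36.1, 20.2 and 37.9 FPKM in KO 2-cell and was listed at 0 in all 3 KO PN5 libraries, and rose in KO by 4.97 on the log2(FPKM + 1) scale, against 6.64 in WT. Nhp2 rose by 3.59 in KO and 5.22 in WT, and Nop16 by 2.96 in KO and 6.60 in WT. Bms1 fell in KO, with 2.73, 1.91 and 2.96 FPKM in 2-cell and 23.7, 23.6 and 26.3 FPKM in PN5 libraries (log2 -2.86 (SE 0.17, adjusted p = 6.4e-06)), and was not called in WT (log2 -0.99, adjusted p = 0.075). The WT difference of Bms1 was called with median-of-ratios scaling (log2 -1.51), with all 24 libraries in 1 fit, and without WT PN5 library 1 (log2 -1.31) or WT 2-cell library 1 (log2 -1.40). Values against a group near 0 depend on the pseudocount, and bound no fold change.

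The interaction of genotype with the PN5 to 2-cell step was tested directly. All 45 members were tested in this fit, and 40 had a lower change in KO, 0 a higher one, with 45.8% of all tested genes called and 31.9% lower. Of the 40, 13 were under 1 FPKM in every library of at least 1 group and entered the test through the other groups, Nop16, Bop1 and Heatr1 among them. The median interaction was -1.90 for the members and -0.43 for all tested genes. On the log2(FPKM + 1) scale it was largest for Nop16 (-3.65 (SE 0.34, adjusted p = 6.1e-05)), Bop1 (-3.34 (SE 0.62, adjusted p = 0.0012)) and Heatr1 (-3.16 (SE 0.46, adjusted p = 0.00032)). Of the 40 calls, 31 were made in all the alternative fits with the filter reapplied and 34 with the tested genes held. Pes1, Ebna1bp2, Brix1, Nop10 and Npm1 were not called, the last 2 with a change of 0.25 and 0.49. Both the KO PN5 and the KO 2-cell libraries enter the KO against WT comparisons above, so this is not independent of them.

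**Figure D5:**
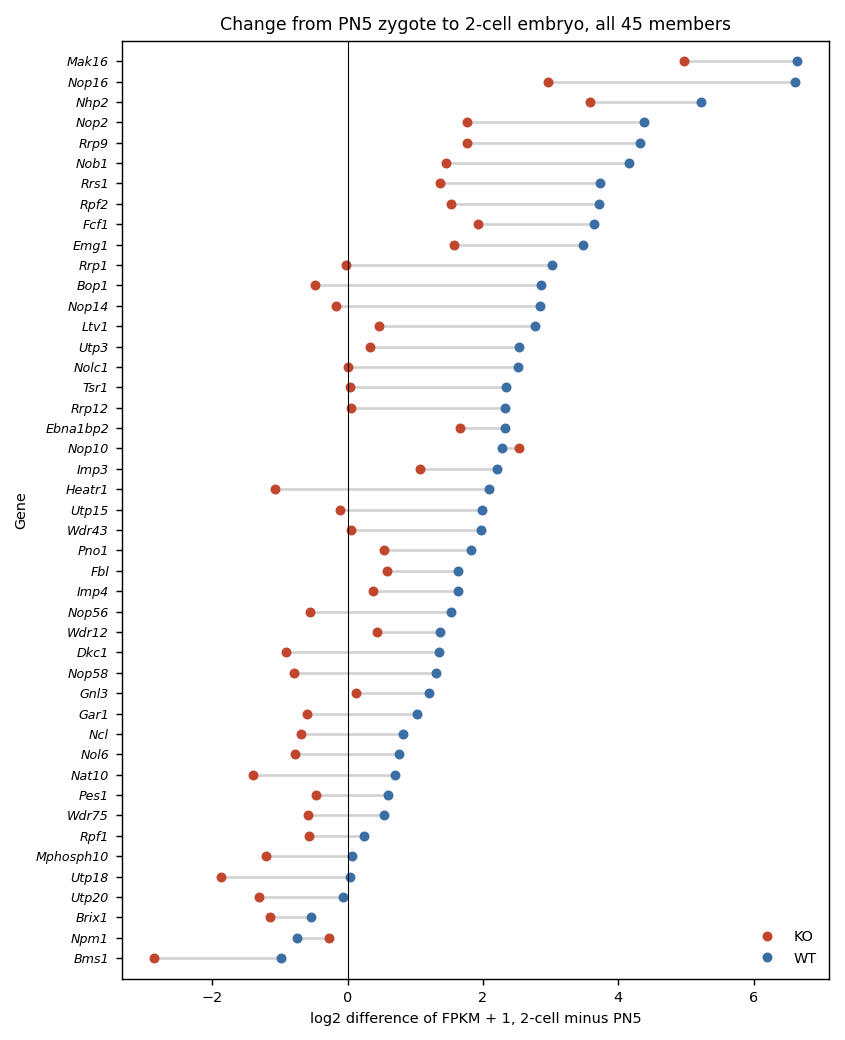
Change from PN5 to the 2-cell stage in log2(FPKM + 1) for all 45 members, KO red and WT blue, joined by a grey line and sorted by the WT change. The KO point lies left of the WT point in every row except Nop10 and Npm1.

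A list of 105 other ribosome assembly genes was read from the same fits; 104 were in the files. At the 2-cell stage 91 of 99 tested were lower in KO, as were 40.3% of all tested genes, and 1 was higher, with a median difference of -1.65 against -1.71 for the members. Ddx10, a DEAD-box helicase, had 1.45 ± 0.253 FPKM in KO and 22.2 ± 4.52 FPKM in WT (log2 -3.23), and Nol11 had 2.57 ± 0.448 FPKM in KO and 20.4 ± 0.386 FPKM in WT (log2 -2.59). Mphosph6, an exosome-associated protein, was the exception at 4762 ± 518 FPKM in KO and 829 ± 173 FPKM in WT (log2 2.54). By the 2-cell stage 30 of 83 were higher and 33 lower than at PN5 in KO, where 43.8% of all tested genes were higher and 26.8% lower. In WT 75 of 99 were higher and 5 lower, where 48% of all were higher and 14.8% lower. At GV 0 of 89 tested and at MII 0 of 65 tested passed between genotypes (limma), with 4 and 16 of them at an unadjusted p under 0.05, and at PN5 3 of 74 were lower in KO (Nifk, Snu13 and Ngdn). Of all tested genes 0.043% passed at GV and 2.28% at MII, and 5.53% were lower in KO at PN5, a share that the PN5 count does not exceed. The counts of all genes at that unadjusted p are given above with the members.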

How the data were processed

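Per the labels, total RNA of 5 oocytes or embryos per library was amplified (SMART-Seq HT). The authors deposited FPKM per Ensembl gene for 24 libraries. StringTie and GRCm38 are named in the submitters' processing notes; versions, aligner and annotation release are not given in the sources used here. Beyond FPKM, no scaling is stated. Where a gene had 1 transcript, 98.8 to 99.2% of low values were whole multiples (up to 30, tolerance 0.02) of 1 step per library, which gave 7.65 to 12.3 M fragments. Symbols and positions came from GENCODE M21.

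limma 3.58.1 (R 4.3.3, package data.table, version 1.17.8) was fitted per comparison on log2(FPKM + 1), with empirical Bayes trend and robust settings, for genes that reached 1 FPKM in 3 or more of the fitted libraries. P-values were adjusted by Benjamini and Hochberg over all tested genes, with a threshold of 0.05. P-values cover only the spread seen between libraries, since the labels do not say whether replicates came from separate mothers. The fit was run on simulated data for KO against WT at the GV and 2-cell stages, with changes added only to genes well above the filter. The simulation held no length trend and no deviating library, so it does not bear on calls that depend on these. Python 3.11.15 (pandas 2.3.3, numpy 2.4.6, matplotlib 3.10.9) drew the figures.

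The members, lists and settings were chosen with earlier results of these data known. Text names, per comparison, up to 6 called members per direction by size among those of at least 5 FPKM in the higher group, plus Npm1, Ncl, Fbl, Nop56, Nop58, Dkc1, Pes1, Bop1, Wdr12 and Nob1; other members named as examples were chosen after their values were seen. Promoters came from RefSeq. Other settings tried were median-of-ratios and TPM scaling, removal of the length trend, a pseudocount of 0.1, no filter, all 24 libraries in 1 fit, the replicate block and leaving out each library. In the planned form of the last the filter was reapplied, so a group left with 2 libraries could lose genes; a second form that held the tested genes fixed was added after that was seen.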

Additional observations from a re-analysis of the deposited data

Results flagged for a closer look

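The change from PN5 to the 2-cell stage differed between genotypes for 40 of the 45 members by the interaction test in limma (Benjamini-Hochberg adjusted p under 0.05), which is what marked them for a closer look. On the log2(FPKM + 1) scale the KO change minus the WT change was -3.65 for Nop16, -3.34 for Bop1, -3.16 for Heatr1, -3.04 for Rrp1 and -3.01 for Nop14. It was -2.72 for Nob1, -2.26 for Dkc1, -2.09 for Nop56 and -2.09 for Nop58. Smaller values were measured for Ncl (-1.51), Fbl (-1.04) and Wdr12 (-0.94). The call of Wdr12 was made in 4 of 19 other settings and lost with median-of-ratios scaling, the length trend removed, a pseudocount of 0.1, no filter and any 1 library left out other than WT 2-cell library 3, with adjusted p up to 0.166. Of all tested genes 31.9% were called in the same direction. Of the 40, 13 were under 1 FPKM in every library of at least 1 group and entered the test through the other groups. Among those 13 were Nop16, Bop1, Heatr1, Rrp1, Nob1, Fbl and Wdr12.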

How the results depend on the processing

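Counts of called members changed by over 1.5 times in the following settings. For KO against WT at PN5 the single call became 0 with median-of-ratios scaling, TPM scaling, a pseudocount of 0.1, no filter and the replicate block, and 7 with all 24 libraries in 1 fit. For WT PN5 against MII the 3 calls became 5 with median-of-ratios scaling and 6 with all 24 libraries. Leaving out 1 library gave 0 to 2 calls at GV, 0 to 11 at MII (10 or 11 without KO library 1, by the form used), 0 to 11 at PN5 and 36 to 43 at the 2-cell stage for KO against WT. It gave 25 to 35 for WT MII against GV, 0 to 7 for WT PN5 against MII (0 or 1 without MII library 1 or 3 or PN5 library 2 in the form with the filter reapplied, 5 to 7 without PN5 library 1 or 3), 23 to 36 for WT 2-cell against PN5 (23 without WT 2-cell library 2, where reapplying the filter left fewer genes tested), 24 to 30 for KO and 34 to 41 for the interaction. Both forms of the leave-one-out test, with the filter reapplied and with the tested genes held, are in these ranges; the second was chosen after seeing the data. The replicate block changed no other count by over 1.5 times: 0 at GV and MII, 41 at the 2-cell stage, 34, 3, 33 and 29 for the steps and 40 for the interaction. Deviations of same-numbered libraries from their group means correlated at -0.386 to 0.23, in no comparison above 0.1 for all 3 numbers. With 3 libraries per group this cannot decide whether same-numbered libraries share a mother or a batch. The labels do not say either.

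Of the members named by the rule above for each comparison, 28 values in 20 results changed sign, 3 of them from a call. Ltv1 and Pno1, called in the KO step from PN5 to 2-cell but outside that rule, also changed sign as TPM (-0.13 and -0.09). For KO against WT at GV the 28 values included Dkc1 (0.0250) and Ncl (0.0530) with median-of-ratios scaling, Ncl (0.0175) with the length trend removed and Wdr12 (-0.00359) as TPM. Leaving out 1 library gave -0.00917 to 0.114 for Wdr12, -0.492 to 0.0503 for Nop56 and -0.709 to 0.0420 for Pes1. At MII they were Nop58 (0.13), Dkc1 (0.15) and Ncl (0.10) with median-of-ratios scaling, and Nop58 at 0.0597 with the length trend removed and -0.190 to 0.0168 without 1 library. At PN5 they were Dkc1 at 0.20 as TPM and -0.160 to 0.0923 without 1 library, and Ncl at -0.00614 with the length trend removed. At the 2-cell stage Npm1 (0.25) and Pes1 (0.00792) reversed with median-of-ratios scaling. For WT MII against GV, Nop58 was 0.20 with median-of-ratios scaling and 0.14 as TPM, and Utp15 was -0.10 with the length trend removed. For WT PN5 against MII, Ncl (-0.0913) and Npm1 (-0.12) reversed as TPM, and leaving out 1 library gave -0.360 to 0.0629 for Nop56, -0.0694 to 0.414 for Npm1 and -0.447 to 0.279 for Pes1. For KO 2-cell against PN5, Nop58 (0.0454) and Ncl (0.12) reversed with the length trend removed. The cause was not tested.

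FPKM is relative, so a shift in the whole library moves every gene: the median of all tested genes at the 2-cell stage was -0.44, and -0.05 with median-of-ratios scaling. Depth limits the low members: Rrp12 rested on an implied 9 to 36 fragments per KO 2-cell library, against 131 to 279 in WT.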
